A study of Mus musculus with 24 samples.

Results

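The miR-466 and miR-297 families are mouse microRNAs (miRNAs) from repeat-derived hairpins. Their members were taken by name: every miRNA on the array whose name starts with mmu-miR-466 or mmu-miR-297 and an optional letter. This gave 26 of the 1881 miRNAs on the array, 23 of them named miR-466 and 3 named miR-297. The arrays measured liver RNA of 3 mice, numbered 7, 9 and 10, in 8 groups of 3 arrays, one array per mouse in each group. Pieces of each liver went at once into RNAlater (0 h, fresh) or lay at room temperature for 96 h before storage. RNA that kept its small RNAs was isolated with the miRNeasy kit from fresh and from 96 h tissue, each with and without DNase digestion on the column. From fresh tissue, RNA depleted of small RNAs was isolated with the RNeasy kit and DNase. It was measured as it was, or after incubation with 0, 0.026 or 0.67 U RNase and a second isolation with the miRNeasy kit without DNase. The depletion leaves a remainder of small RNAs, as the study's methods state. Each isolation from tissue used its own piece of the liver, so treatment, piece and isolation cannot be told apart. The 3 mice were male, and their strain and age are not given in the sources used here. In such bulk tissue, fewer cells of a type and less RNA per cell cannot be told apart. Each mouse filled 1 slide that was scanned on its own day, so mouse, slide and scan cannot be told apart, while each holds all 8 groups.

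Most genes of these families lie in a row inside an intron of Sfmbt2, a gene for a Polycomb group protein, and the cluster is known for its activity in the placenta and in embryonic stem cells. A miRNA hairpin yields a 5p and a 3p strand, and the bases 2 to 8 of a mature strand, its seed, guide it to target transcripts. In these families the hairpins arose from dinucleotide repeats, so the 5p strands are rich in U and G and the 3p strands in A and C. The RefSeq gene table (GRCm38.p6) holds 35 genes named Mir466 or Mir297 or carrying such a synonym, and 29 of them lie within Sfmbt2 on chromosome 2. The other 6 lie on chromosomes 3, 7, 10 and 13. Mir466q is within Tnik, Mir466i within Cdk13 and Mir466k within the long non-coding RNA gene Gm31419, while Mir466j, Mir297-1 and Mir466f-4 are within no listed gene.

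Mature sequences were at hand for 4 of the 26 members (RefSeq, GRCm38.p6), and they are shown because they give both repeat types. All lie on the plus strand, miR-466j at chr10:60960802-60960824, miR-466k at chr3:85467396-85467418, miR-466i-3p at chr13:17747552-17747573 and miR-466q at chr3:28419988-28420007. Sequences run 5′ to 3′, with the seed in capitals.
mmu-miR-466j: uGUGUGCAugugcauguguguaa
mmu-miR-466k: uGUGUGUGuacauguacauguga
mmu-miR-466i-3p: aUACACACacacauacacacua
mmu-miR-466q: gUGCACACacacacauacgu
The strands miR-466j and miR-466k hold the letters UGUGUG, with 17 of 23 and 16 of 23 bases U or G. The strands miR-466i-3p and miR-466q hold ACACAC, with 19 of 22 and 14 of 20 bases A or C. Of the 1608 array miRNAs with a mature sequence in the same table, 1.55% hold UGUGUG and 0.684% hold ACACAC on the mature strand. No pair of the 4 shares its seed. Every member is read on the array by 30 spots with 2 to 4 different probes.

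More members were detected after 96 h than in fresh tissue, as were more miRNAs over the whole array. The scanner software called 5, 5 and 5 members detected on the fresh arrays with DNase and 5, 5 and 6 on those without (values in the order mouse 7, mouse 9, mouse 10 here and below). After 96 h the counts were 12, 12 and 6 with DNase and 15, 13 and 13 without. Depleted RNA gave 8, 6 and 7 members, and depleted RNA incubated without RNase 5, 5 and 5. With 0.026 U RNase 5, 6 and 5 members were detected, with 0.67 U 5, 6 and 6. All detected miRNAs numbered 273 to 342 on fresh and 582 to 707 on stored arrays. The members were 1.62% to 1.83% of them on fresh arrays and 1.03% to 2.42% on stored ones, so their rise was near that of the array. In untreated depleted RNA their share was 3.23% to 3.65%, the highest of any group. Of the 26, 10 were detected on no array, and 12 passed the filter for testing, detection on at least 5 of the 24 arrays. Of these 12, 5 were detected on all 24 arrays, namely miR-466f-3p, miR-466h-3p, miR-466i-3p, miR-466i-5p and miR-466q. Another 5, miR-466c-5p, miR-466f-5p, miR-466h-5p, miR-466j and miR-466m-5p, were detected on stored arrays alone. They passed only through the stored groups, so counts of members higher after storage, or higher without DNase at 96 h, describe them and support nothing.

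**Figure D1:**
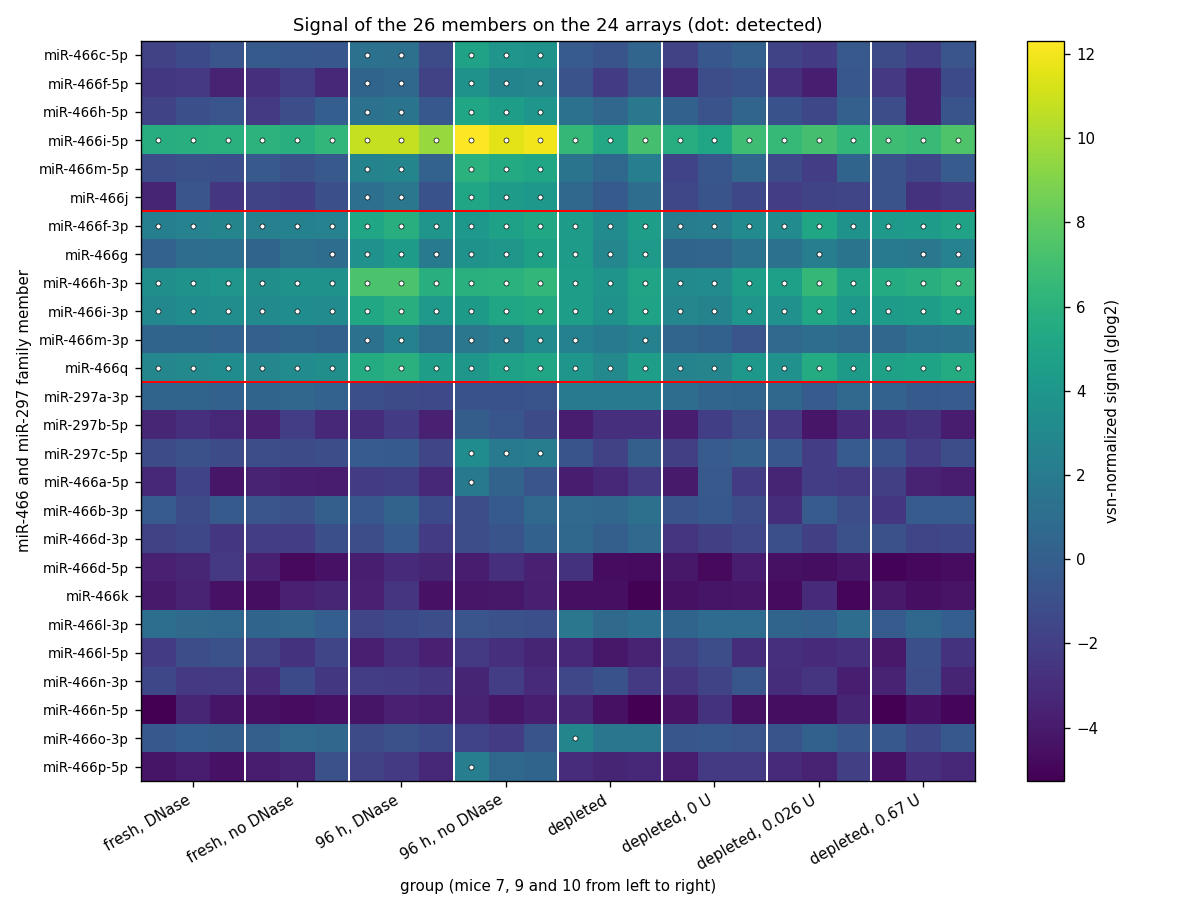
Signal of the 26 members (rows) on the 24 arrays (columns, 3 mice per group) as vsn-normalized glog2 values in colour, with a dot where the miRNA was detected; red lines separate tested 5p arms with miR-466j, tested 3p arms with miR-466g and miR-466q, and untested members. The 5p arms are dark and without dots outside the 96 h groups except for miR-466i-5p, which is the brightest row throughout.

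The tissue and the arrays were checked first. All 3 hepatocyte miRNAs (miR-122-5p, miR-192-5p and miR-194-5p) were detected on every array, with summed signals from 7655 to 15146 on fresh arrays, 3546 to 6741 after 96 h and 2027 to 5230 on depleted arrays. The summed erythroid markers were at 224 to 575 on fresh arrays, 182 to 243 after 96 h and 2.65 to 21 on depleted arrays, and the 3 neuron markers were detected nowhere. Of 3 markers of striated muscle, 1 (miR-133a-3p) was detected on all 6 stored arrays, at 9.65 to 14.2 units, and on no other array. Its part in the results after storage was not tested. RNA integrity numbers (RIN, 10 for intact RNA) were 8.8 to 9 in fresh and 2.3 to 2.5 in stored tissue. The 96 h array of mouse 10 with DNase stood apart, correlating with the other arrays of its group at r = 0.884 and 0.849, against 0.977 between those. The array of mouse 9 described as 0.026 U correlated at 0.882 and 0.88 with its group, against 0.973 between the other arrays. Its title gives the dose 0.67 U, and the other RNase array of mouse 9 has the opposite conflict. The description was followed, since the RIN of 6 for the first and 2.4 for the second array order like the doses it gives. No spot of a member was saturated on any array.

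The brightest member was miR-466i-5p. Its signal was 37.5, 39.9 and 47 intensity units on fresh arrays with DNase and 51.6, 39.8 and 66.5 without. After 96 h it read 4926, 5702 and 1632 with DNase, and 12284, 6688 and 11039 without. In depleted RNA it read 59.7, 28.5 and 104. The stored arrays lay far above every other array, and in each mouse the stored array without DNase was the highest of all 8. The detected members made up 0.0483% to 0.106% of the summed signal of detected miRNAs on a fresh array, 0.94% to 2.36% after 96 h with DNase and 3.89% to 6.66% after 96 h without DNase. On the stored arrays miR-466i-5p was 82.3% to 94.2% of that member signal. The second brightest member on fresh arrays was miR-466h-3p with 7.62, 8.92 and 12.3 units with DNase and 7.69, 8.68 and 9.61 without.

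The comparison without against with DNase sets side by side separate pieces of each liver, isolated separately. Digestion of DNA, piece and isolation cannot be told apart in it. After 96 h, 6 of the 12 tested members were higher without DNase and none was lower. These were the 5 tested 5p arms and miR-466j, the repeat type rich in U and G. None of the 4 tested 3p arms was called, nor were miR-466g and miR-466q. A call here is a limma adjusted p under 0.05 with a change of at least 1 glog2 unit, that is 2-fold for signals well above background, and 6.18% of all 631 tested miRNAs were called higher by it. The split by arm was noticed in these values and is given as a description. Of the 6 strands, 5 were detected only on stored arrays, on 3 of 3 without DNase and 2 of 3 with DNase. They passed the filter through the groups compared here, so the count of 6 describes them and supports nothing. The members' median change was 1.19 glog2 units, against 0.02 over all tested miRNAs.

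The fitted change was largest for miR-466j, which read 4.94, 9.53 and -0.372 units at 96 h with DNase and 78.8, 45.8 and 47.3 without. Its groups did not overlap, and on the array of mouse 10 with DNase it was not detected. The change was 3.85 ± 0.69 glog2 units (SE, n = 3 arrays per group, limma adjusted p = 0.000796). No other tested miRNA on the array had a larger fitted glog2 change in this comparison. As the value of mouse 10 with DNase was at background, this is no ranking of folds.
The signal of miR-466h-5p went from 5.96, 7.81 and 0.038 units to 81.5, 49.4 and 43.4, a change of 3.73 ± 0.73 (limma adjusted p = 0.00137). That of miR-466c-5p went from 6.02, 6.42 and -0.705 to 69.9, 30.9 and 37, a change of 3.72 ± 0.66 (limma adjusted p = 0.000796). That of miR-466m-5p went from 16, 20.7 and 1.07 to 151, 93.7 and 96.6, a change of 3.63 ± 0.68 (limma adjusted p = 0.000951). For each of these strands every array without DNase was above every array with DNase, and the lowest value was always that of mouse 10 with DNase, where the strand was not detected. The 2 further calls were miR-466f-5p with 3.34 ± 0.88 (adjusted p = 0.0175) and the bright miR-466i-5p with 1.56 ± 0.45 (adjusted p = 0.0281). The rise of miR-466i-5p within a mouse was 1.56, 0.82 and 2.32 glog2 units.

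The 3p arms took another course. The signal of miR-466h-3p at 96 h was 457, 535 and 120 units with DNase and 144.5, 137 and 234 without. It was lower without DNase in mice 7 and 9 and higher in mouse 10, and the groups overlapped, with a change of -0.75 ± 0.47 (adjusted p = 0.363). The strand miR-466q read 135, 196 and 48.5 with DNase and 38.4, 58.3 and 99.7 without, with a change of -0.70 ± 0.50 (adjusted p = 0.426). The other 3p arms and miR-466g changed by -0.25 to 0.82 glog2 units with adjusted p of 0.326 to 0.842. The median change of these 6 members was -0.98, -0.85 and 1.24 glog2 units in mice 7, 9 and 10. For the 5p arms with miR-466j it was 3.43, 2.67 and 4.73.

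Single probes were also read, as signals not normalized between arrays. All 16 probes of the 5p arms and miR-466j read higher without DNase in 3 of 3 mice, and of the 16 probes of the 3p arms, miR-466g and miR-466q, 0 did so while 14 were higher in 1 mouse. Apart from those of miR-466i-5p, the first 16 belong to the 5 strands that passed the filter through the stored arrays. The share over all probes of the array is not given here, so these probe counts are only a description. With normexp background correction, which adds an offset, miR-466i-5p remained called and the changes of the other 5 strands were 0.23 to 0.76, under the 2-fold limit. Without mouse 7 no member was called, with changes of the 6 strands of 1.57 to 3.84 and adjusted p of 0.0517 to 0.527. Without mouse 10, whose array with DNase stood apart, the same strands except miR-466i-5p (1.19, adjusted p = 0.0511) were called higher, and miR-466h-3p was called lower, at -1.39 (adjusted p = 0.0408).

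**Figure D2:**
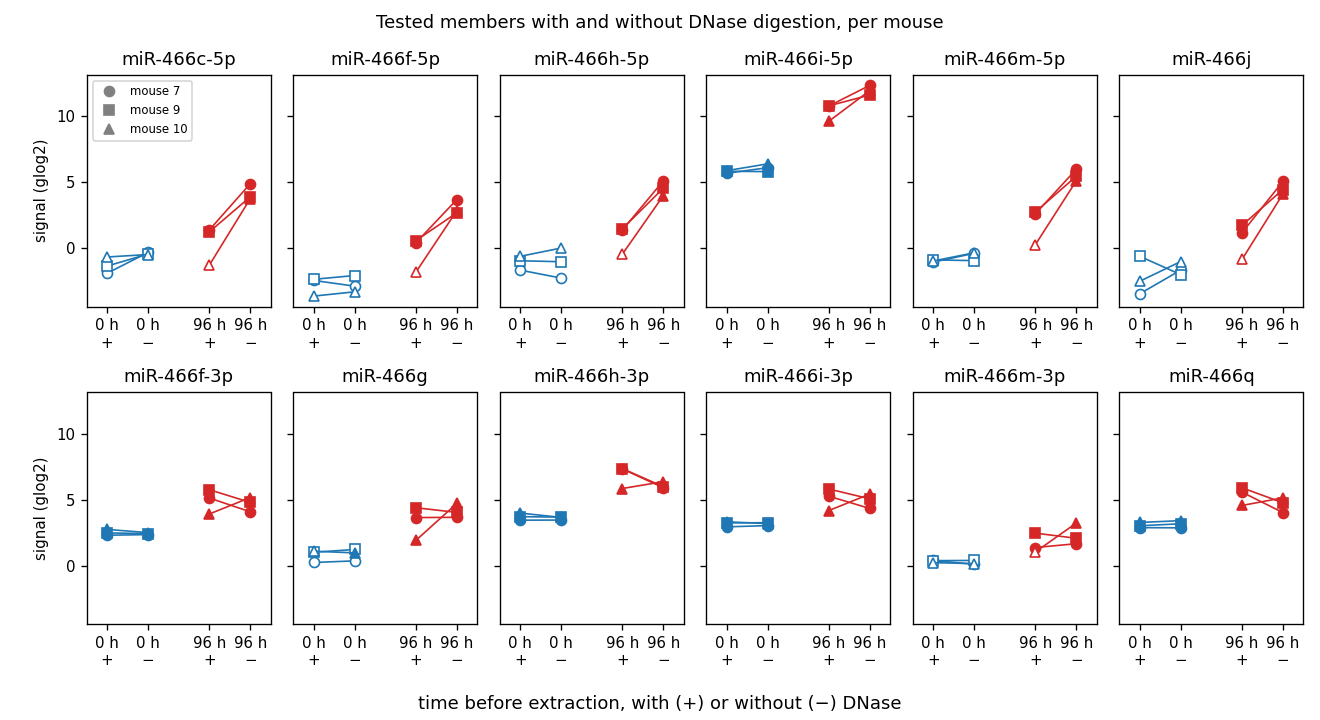
Signal (glog2) of the 12 tested members at 0 h and 96 h with (+) and without (−) DNase, with 1 line per mouse and open symbols where the miRNA was not detected; 5p arms and miR-466j are in the upper row, 3p arms, miR-466g and miR-466q in the lower. At 96 h all 18 lines of the upper row rise, while those of the lower row mostly fall in mice 7 and 9 and rise in mouse 10.

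Members that missed the filter were looked at in a fit without it. There 10 of 26 members were called higher without DNase at 96 h, against 5.16% of all 1881 miRNAs. They were 9 of the 12 5p arms and miR-466j, and none of the 10 3p arms. The added strands were miR-297b-5p, miR-297c-5p, miR-466a-5p and miR-466p-5p. The only miR-297 strand detected on any array was miR-297c-5p, which read 1.08, 1.26 and -0.906 units with DNase and 22.8, 7.44 and 11.6 without. It was detected on the 3 stored arrays without DNase and on no other array, and was at least 5.23-fold higher there (adjusted p = 0.0015 in the unfiltered fit). This bound sets the mean of the brighter group against, for each dim array, the higher of its own value and the lowest value of a detected miRNA, and is used so below. The strands miR-466a-5p and miR-466p-5p were detected on 1 array each, that of mouse 7 without DNase, at 7.59 and 10.2 units, and miR-297b-5p was detected on none. The strand miR-466k, although it holds UGUGUG like miR-466j, was detected on no array and read between -2.62 and -0.737 units.

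In fresh tissue, no member was called for DNase. In limma 0 of 12 passed and 0 had an unadjusted p under 0.05, and 0% of the 631 tested miRNAs were called higher. Changes ran from -0.12 to 0.89 glog2 units, and the highest, that of miR-466c-5p, was between values near 0 on arrays where it was not detected. The 5p arms other than miR-466i-5p were detected on no fresh array, so a difference between them was not detectable there. For miR-466i-5p the change was 0.30 ± 0.45 (adjusted p = 0.991).

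Whether the difference without against with DNase was unlike at 96 h and 0 h was tested as a contrast of its own. No member passed (0 of 12, with 0.951% of all miRNAs called higher), though 5 had an unadjusted p under 0.05. These 5 strands, miR-466c-5p, miR-466f-5p, miR-466h-5p, miR-466j and miR-466m-5p, were detected on no fresh array, so the contrast sets their 96 h change against values that could not be measured, and no size is given for it. For miR-466i-5p, detected on all arrays, the difference was 1.26 ± 0.64 (adjusted p = 0.38). Scaled to the 75th percentile over those miRNAs that every array detected, the same 5 strands passed, under the same limit (4.75% of all miRNAs called higher), and with the 75th percentile of all miRNAs 5 members did (3.96%).

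Signals of the tested members of both arms were higher after storage. These comparisons use the same stored arrays as that for DNase at 96 h. After 96 h with DNase, 12 of 12 tested members were higher than in fresh tissue with DNase, beside 60.4% of all tested miRNAs, and without DNase 12 of 12 beside 60.5%. The count with DNase was 6 with the 75th percentile over miRNAs that every array detected, 4 with that of all miRNAs and 1 with normexp, and without DNase 7 (75th percentile of all miRNAs) and 1 (normexp). Without the filter 13 of 26 members were higher with DNase and 4 lower, and without DNase 17 were higher and 3 lower. The share of all miRNAs in these unfiltered fits is not given here, so the members cannot be set against the array in them. The median change of the members with DNase, 2.47 glog2 units, was the same as that of all tested miRNAs at this precision. Without DNase it was 3.93, against 2.16 over all. Of the members detected on all arrays, miR-466i-5p had the largest change with DNase, 4.59 ± 0.45 (adjusted p = 1.82e-08), followed by miR-466h-3p, which went from 7.62, 8.92 and 12.3 to 457, 535 and 120 units (3.12 ± 0.47, adjusted p = 4.28e-06). For both strands all stored arrays were above all fresh ones. Further calls were miR-466j (2.86 ± 0.69, adjusted p = 0.000694) and miR-466m-5p (2.84 ± 0.68, adjusted p = 0.00065), whose fresh values with DNase lay between -0.843 and -0.102 and between -0.48 and -0.188 units. Neither was detected on a fresh array, and both were detected on 2 of 3 stored ones. Of the 3 mice, mouse 10, whose array stood apart, had the smallest change for each of the 12 members, and for miR-466c-5p it was -0.61. Without mouse 7, and likewise without mouse 9, 8 members were called.

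Without DNase, the stored array was above the fresh one in each mouse for every tested member. The share of all miRNAs that did so is not given here, and 60.5% of the 631 tested were called higher. Of the 12 members, 5 had passed the filter through the stored arrays alone, so this describes them and supports nothing. The bright miR-466i-5p, detected on all arrays, changed by 5.85 ± 0.45, which is 57.8-fold (adjusted p = 1.11e-09). Strands not detected on fresh arrays have a lower bound only, so they cannot be ranked. The strand miR-466j went from -0.665, -0.671 and -0.328 units to the values given above, at least 10.9-fold (6.08 ± 0.69 glog2 units, adjusted p = 1.16e-07). The strand miR-466m-5p went from -0.277, -0.429 and -0.0767 units, at least 21.6-fold (6.06 ± 0.68, adjusted p = 9.9e-08), and miR-466f-5p from -0.895, -0.684 and -0.832 to 29.7, 12.6 and 19, at least 3.98-fold (5.80 ± 0.88, adjusted p = 4.88e-06). The 3p arms, miR-466g and miR-466q changed by 1.49 (miR-466q) to 3.28 (miR-466g) glog2 units. The direction of these storage changes depended on scaling for 1 member: miR-466q without DNase was at -0.02 with normexp and at -0.07 when scaled by the 75th percentile of all miRNAs.

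Depletion compares fresh RNA isolated with DNase without and with most of its small fraction, from separate liver pieces and with different kits. Of the 12 tested members, 7 were called higher in depleted RNA and 0 lower, while 5.39% of all tested miRNAs were higher and the median of all was -0.17. The count was 2 without normalization between arrays and 4 with spike-in scaling. The change was largest for miR-466g, which read 0.253, 0.917 and 0.913 units in fresh RNA with DNase, where it was not detected, and 14.3, 4.29 and 12.9 in depleted RNA, where it was detected on 3 of 3 arrays. It was at least 6.85-fold higher (3.01 ± 0.53 glog2 units, adjusted p = 9.26e-05). The arm miR-466m-3p read 3.08, 1.9 and 3.18 units and was detected on 2 depleted arrays and no fresh one (1.92 ± 0.40, adjusted p = 0.000577). Of the members detected on all arrays, miR-466f-3p, from 3.12, 3.49 and 4.71 to 13.9, 5.91 and 17.6 units (1.55 ± 0.49, adjusted p = 0.0172) and miR-466i-3p from 5.19, 6.28 and 7.43 to 15.7, 8.95 and 21.6 (1.22 ± 0.45, adjusted p = 0.0426), were called as well. For these 4 members every depleted array was above every fresh one.
The other 3 calls, miR-466j (2.63 ± 0.69), miR-466m-5p (2.42 ± 0.68) and miR-466h-5p (2.29 ± 0.73), were between arrays on which the strand was not detected in either group. Their signals stayed between -0.268 and 2.67 units in depleted RNA, so no fold is given. The bright miR-466i-5p was not called (0.52 ± 0.45, adjusted p = 0.487), with a lower value in mouse 9 than in fresh RNA. The total signal of detected miRNAs was 8313 to 9631 units on depleted and 55237 to 109374 on fresh arrays with DNase, and its part in the result was not tested. The number of calls was 2 without mouse 7 (miR-466g and miR-466m-3p) and 4 without mouse 10. With the depleted arrays incubated at 0 U in place of the untreated ones it was 0.

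Incubation without RNase and a second isolation were compared with untreated depleted RNA, the arrays also used for depletion. Of 12 members 2 were called lower at 0 U (1.58% of all miRNAs) and 0 higher (0.158%). Signals of miR-466g fell to -0.11, 0.0628 and 0.769 units, at least 5.5-fold lower (-3.11 ± 0.53, adjusted p = 0.0019), and it was detected on none of the 0 U arrays. The arm miR-466m-3p fell to -0.071, -0.0671 and -0.259 units (-2.28 ± 0.40, adjusted p = 0.00215). Both were lower in 3 of 3 mice, without overlap. Without mouse 7 neither was called (adjusted p = 0.317 and 0.14), and without mouse 10 only miR-466g was (adjusted p = 0.0162).

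RNase was added to depleted RNA to make fragments of larger RNAs. With both doses pooled, 5 of 12 members were higher than at 0 U and 0 lower, which is 41.7% of the tested members beside 44.7% of all tested miRNAs, a share near that of the array as a whole. The total signal of detected miRNAs was 7125 to 10043 units at 0 U and 36325 to 177642 with RNase, and its part was not tested. The called members were 3 of the 4 3p arms with miR-466g and miR-466q, and 0 of the 6 in the other group. The strand miR-466h-3p read 5.1, 4.21 and 13.2 units at 0 U, 15.8, 87.3 and 17.9 at 0.026 U and 36.4, 33.8 and 87.4 at 0.67 U (1.95 ± 0.41, adjusted p = 0.00049). Its RNase arrays were all above those at 0 U, and in each mouse the 0 U array was the lowest. The strand miR-466f-3p read 2.06, 1.85 and 4.52 units at 0 U, 5.41, 34.4 and 7.65 at 0.026 U and 13.2, 13 and 30.8 at 0.67 U (1.72 ± 0.42, adjusted p = 0.00175), so that its RNase arrays did not overlap with those at 0 U.
The strand miR-466q changed by 1.63 ± 0.43 (adjusted p = 0.00324), miR-466i-3p by 1.38 ± 0.39 (adjusted p = 0.00544) and miR-466g by 1.18 ± 0.46 (adjusted p = 0.0396). The remaining 3p arm, miR-466m-3p, was detected on none of these arrays (0.91 ± 0.35, adjusted p = 0.0354, under the 2-fold limit). Of the other group, miR-466i-5p had the only positive change, 0.98 ± 0.39 (adjusted p = 0.0456), just under 2-fold. Its direction depended on scaling, with -0.33 for the 75th percentile over miRNAs that every array detected, -0.64 with quantile normalization and -0.49 with normexp. The others were detected on no array with or without RNase, and their fitted changes ran from -1.25 to -0.28 with adjusted p of 0.121 to 0.789.

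The order of the doses differed between mice. In mice 7 and 10 miR-466f-3p, miR-466g, miR-466h-3p, miR-466i-3p and miR-466q were higher at 0.67 U than at 0.026 U, by 0.64 to 1.12 and 0.98 to 1.45 glog2 units. In mouse 9 they were lower at 0.67 U, by -0.68 to -0.53. This is the mouse whose dose labels conflict. The comparison above averages both doses of each mouse, so its fitted change is the same under either labelling. Its SE and adjusted p can differ, and with the doses by title 5 members were called as well. Without mouse 9 only miR-466f-3p and miR-466h-3p were called. In signals not normalized between arrays, all 16 probes of the 3p arms, miR-466g and miR-466q were higher with RNase in 3 of 3 mice. Of the 16 others 2 were, both of miR-466i-5p, and the rest belong to strands detected on none of these arrays. The total signal was also higher with RNase, so these probe counts are only a description. With scaling to the 75th percentile over those miRNAs that every array detected, the median change of all tested miRNAs was 0 in place of 0.69 and no member was called.

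**Figure D3:**
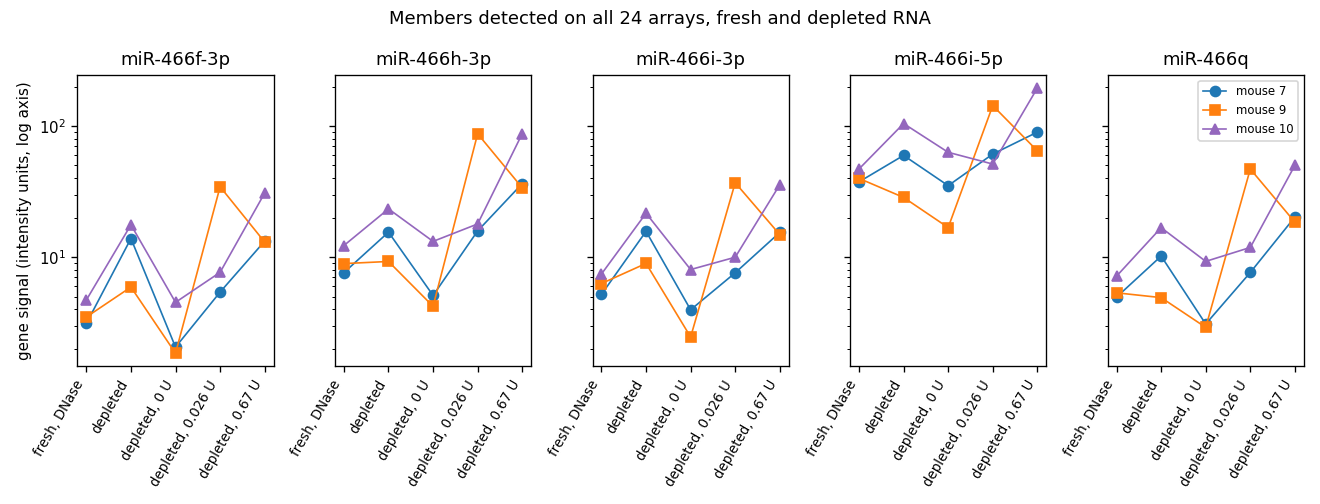
Signal in intensity units (log axis) of the 5 members detected on all 24 arrays, in fresh RNA with DNase and in the 4 depleted groups, with 1 line per mouse and doses as the sample descriptions give them. Every line rises from 0 U to 0.67 U, and among its depleted arrays mouse 9 peaks at 0.026 U.

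Both treatments can be set side by side, since they share no arrays. The fitted differences of the 5p arms and miR-466j were 1.56 to 3.85 without DNase at 96 h and -1.25 to 0.98 with RNase. Those of the 3p arms, miR-466g and miR-466q were -0.75 to 0.82 without DNase and 0.91 to 1.95 with RNase. On the arrays of the RNase comparison miR-466j, miR-466m-3p and the 5p arms except miR-466i-5p were not detected. Their RNase differences are between values near background, and that of miR-466i-5p, 0.98, lies within the range of the 3p set. Of the 5 members detected on all 24 arrays, miR-466f-3p and miR-466i-3p were most alike, with a Pearson r of 0.992 over the arrays. Whether a probe of one strand also reads another was not tested.

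**Figure D4:**
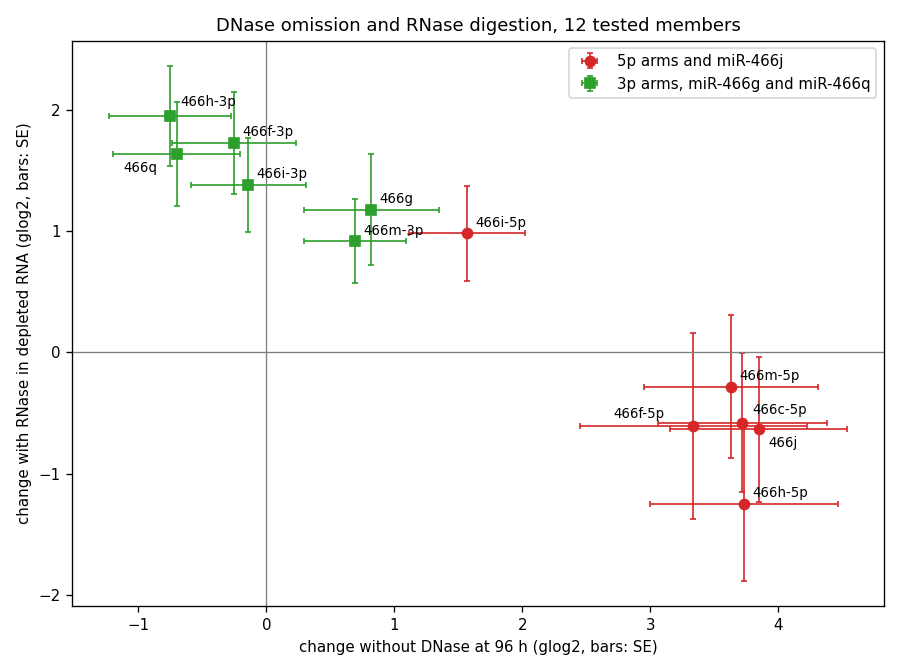
Change without against with DNase at 96 h (x axis) and with both RNase doses against 0 U in depleted RNA (y axis) for the 12 tested members in glog2 units, with SE bars. The 5p arms and miR-466j lie to the right, at 1.56 to 3.85, and the 3p arms with miR-466g and miR-466q above 0.9 on the y axis, with miR-466i-5p between both groups. On the arrays behind the y axis miR-466j, miR-466m-3p and the 5p arms except miR-466i-5p were not detected.

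Related families were read with the same rule. Most miR-467 and miR-669 genes share the Sfmbt2 cluster. The families have 12 and 23 miRNAs on the array, of which 3 and 10 were tested. Without DNase at 96 h, 1 of 3 miR-467 and 7 of 10 miR-669 miRNAs were called higher, beside 6.18% of all tested miRNAs. By arm these were 5 of 5 tested miR-669-5p strands with changes of 3.29 to 3.84, 1 of 4 miR-669-3p strands, and miR-467c-5p at 3.24 ± 0.45 (adjusted p = 9.75e-05). Which arrays detected these strands, or those of the lists by sequence below, is not given here. Any strand that passed the filter only through the stored arrays was chosen by the groups compared. These counts are therefore a description and support nothing. Of the miRNAs with no tie to these families, 22 on the array held UGUGUG on the mature strand and 7 held ACACAC, and 6 of 9 tested were called higher in the first set and 0 of 3 in the second. A few sequences of these lists are shown because they carry similar repeats (RefSeq, GRCm38.p6). On the plus strand lie miR-669n at chr3:115979905-115979924 and miR-574-5p at chr5:64970328-64970350, on the minus strand miR-1187 at chr5:82798964-82798986 and miR-467f at chr11:69635419-69635439, with seeds in capitals.
mmu-miR-669n: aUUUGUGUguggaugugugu
mmu-miR-1187: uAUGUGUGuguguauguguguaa
mmu-miR-574-5p: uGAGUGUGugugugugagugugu
mmu-miR-467f: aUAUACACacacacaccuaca
Without DNase at 96 h, the signal of miR-669n changed by 2.51 ± 0.39 (adjusted p = 0.00022), that of miR-1187 by 2.29 ± 0.44 (adjusted p = 0.00118) and that of miR-574-5p by 2.18 ± 0.41 (adjusted p = 0.000951). The AC-rich miR-467f changed by -0.87 ± 0.45 (adjusted p = 0.276) there, and by 1.82 ± 0.39 (adjusted p = 0.000581) with RNase. With RNase, 4 of 9 tested others holding UGUGUG were called higher and 0 of 3 holding ACACAC, beside 44.7% of all tested miRNAs. Among the 4 was miR-574-5p (1.23 ± 0.35, limma adjusted p = 0.00628). The tested miR-669-5p strands were also called higher in depleted RNA, 5 of 5 with changes of 2.07 to 3.11, beside 5.39% of all tested miRNAs. With RNase 0 of 5 were called, beside 44.7%. Their detection on these arrays is not given here, so no fold is stated. Counted over all tested miRNAs with a known mature sequence, 8 of 11 with UGUGUG were higher without DNase, 0 of 6 with ACACAC, and 23 of 526 (4.37%) in all. The first count is the 6 of 9 above with miR-466j and miR-669n added. The second is the 0 of 3 above with miR-466i-3p, miR-466q and miR-467f added. Both recount strands already given, so they add no support. A match is of letters in the mature strand only. The strands let-7b-5p (0.60 ± 0.44, adjusted p = 0.441) and miR-7226-5p (1.37 ± 0.75, adjusted p = 0.3) hold UGUGUG and were not called. Nor was miR-493-3p, which holds UGUGUG too and changed in the other direction (-1.79 ± 0.91, limma adjusted p = 0.262). Of the 39 miRNAs called higher without DNase at 96 h, 6 were members, 8 belonged to miR-467 or miR-669, 6 were others holding UGUGUG and 19 were none of these by name or known sequence, 4 of them without a mature sequence at hand.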

How the data were processed

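Intensities deposited by the authors came from 24 one-colour Agilent mouse miRNA arrays (miRBase 21 design), scanned and extracted per the file headers with Agilent Feature Extraction 10.10.1.1, which subtracts background and sums probes per miRNA. Detection flags were deposited in the same files. The deposited log2 table by the authors holds vsn-normalized values, and the normalization used here differed from it by an SD of 0.0956 glog2. Here the gene signal (where not detected, the sum of its probe signals) was normalized with an own implementation of vsn (Python 3.11.15, numpy 2.4.6), and 631 miRNAs detected on at least 5 arrays were fitted with limma 3.58.1 in R 4.3.3 on 8 group means over all arrays, with a trended prior and Benjamini-Hochberg adjustment over all tested miRNAs. A glog2 unit is a doubling for bright signals; near background, where signals below 0 occur, a glog2 difference is no fold. Arrays carry no counts, so the number of arrays limits the precision. The scripts were tested on simulated data. Mice are separate animals, and same-numbered samples come from 1 mouse. Residuals of arrays of 1 mouse correlated at a mean of 0.0914 and of different mice at -0.0449. The fit without a mouse term was the main one.

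Values per array are given for up to 4 called members with the largest change in each of 5 comparisons that went the same way in 3 of 3 mice, and for the 2 members brightest on fresh arrays. Every tested member is named. Members and lists were chosen with earlier results of these data known. Sequences are from RefSeq (GRCm38.p6); 4 of 26 members were found there. Alternatives covered normalization, background, filter, test, block and single mice.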

Additional observations from a re-analysis of the deposited data

How the results depend on the processing

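Over 1368 recomputed values of member changes under other settings, 130 lost and 35 gained a call. The sign turned in 59, of which 54 were of changes not called at first and 5 of called ones: miR-466q at 96 h against 0 h without DNase (-0.0682 with the 75th percentile of all miRNAs, -0.0227 with normexp background), and with the 0 U arrays as the depleted group miR-466g (-0.10), miR-466i-3p (-0.0651) and miR-466m-3p (-0.37). The counts of called members are given next. Without DNase at 96 h, 6 became 1 with normexp and 10 without the filter. The contrast of 96 h with 0 h went from 0 to 5 with the 75th percentile over miRNAs that every array detected, 5 with that of all miRNAs, 1 without normalization, 2 with spike-in scaling and 1 with normexp. Storage with DNase went from 12 to 6, 4 and 1 (detected percentile, all percentile, normexp), and storage without DNase from 12 to 7 (all percentile), 1 (normexp) and 20 (no filter, 17 higher and 3 lower). Depletion went from 7 to 2 without normalization, 4 with spike-in scaling and 0 with the 0 U arrays. Mock incubation went from 2 to 6 (detected percentile), 5 (quantile), 1 (normexp) and 5 (no filter). RNase went from 5 to 0 (detected percentile), 2 (all percentile), 0 (normexp) and 1 (quantile, miR-466h-5p, lower). The rank test of the methods called 0 members in every comparison it was run on (it was not run for the contrast of 96 h with 0 h), since 3 arrays against 3 cannot go below an exact p of 0.1, and its lowest p with 6 arrays against 3 was 0.0238 (adjusted 0.0573). Leaving out 1 mouse gave 0 (mouse 7) to 6 calls for DNase at 96 h, 8 to 12 for storage with DNase, 2 (mouse 7) to 7 for depletion, 0 (mouse 7) to 2 for the mock incubation and 2 (mouse 9) to 6 for RNase. Normexp adds an offset to dim spots and shrank the changes; the cause of the other shifts was not tested. The replicate block (mouse as a term) left the number of called members in each comparison as it was, 6 for DNase at 96 h. The median change of all tested miRNAs with DNase after 96 h was 2.47 as normalized, 3.82 without normalization and 0.68 with the 75th percentile of all miRNAs. Storage raised the detected members per array by 6.67 on average. A fixed level of 0.901 units in place of the flag gave 8, a shift below the replicate SD of 1.85. The mean number of all detected miRNAs rose as well, from 299 to 643 with DNase and from 301 to 623 without.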
